A study of Homo sapiens with 3 samples.

Results

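The nucleotide excision and crosslink repair genes were 35 genes listed by name, of 32727 genes in a table of average expression per cell cluster. They comprised 14 genes of excision repair (ERCC1, ERCC2, ERCC3, ERCC4, ERCC5, ERCC6, ERCC8, XPA, XPC, DDB1, DDB2, RAD23B, LIG1 and XRCC1) and 9 Fanconi anaemia genes (FANCA, FANCC, FANCD2, FANCE, FANCF, FANCG, FANCI, FANCL and FANCM). The others were 7 genes of homologous recombination (BRCA1, BRCA2, PALB2, RAD51C, RAD52, XRCC2 and XRCC3), the mismatch repair genes MSH6 and PMS2, and the translesion synthesis genes REV1, REV3L and POLH. The question was how each pathway was expressed across the clusters and against the cell cycle state of each cluster.

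The study forced embryonal carcinoma (EC) cells, the stem cell-like form of malignant germ cell tumors, into a yolk-sac tumor (YST)-like state. The libraries were made from the EC lines NCCIT, GCT27 and 2102EP, 1 library per line, on day 8, by droplet-based single cell RNA sequencing (scRNAseq). All cultures were transduced with the lentiviral MPHv2 helper and SOX17-SAMv2 vectors of the CRISPR/dCas9-SAM system, which switch on the endogenous SOX17 gene, and all received Activin A at 100 ng/mL, the WNT activator CHIRON at 3 µM, FGF2 at 25 ng/mL and heparin at 1 µg/mL, renewed every 48 h. No untreated library and no library treated with cisplatin was analysed here, replicates of a line were pooled into its library per the labels, and the deposited averages pooled the lines, so no value had a replicate and no test was made.

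Excision repair cuts out a short stretch of a DNA strand around a bulky lesion, such as the crosslinks that platinum drugs form within a strand, and fills the gap from the other strand. Crosslinks between both strands are recognised at stalled replication forks by the Fanconi pathway, and are then cut, copied past by translesion polymerases and repaired by homologous recombination. Mismatch repair corrects copying errors behind the fork. Germ cell tumors are known for their sensitivity to cisplatin, and low levels of excision repair proteins in testis tumor cells have long been discussed in that context.

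The averages covered 20844 cells in 14 clusters of 42 to 2808 cells, and are given in unique molecular identifiers (UMIs, counted mRNA molecules) per 10000. Cluster 13 had 42 cells, cluster 12 had 180 and cluster 11 had 459, and the precision of their averages is correspondingly low. A single library gave 99.4% of the cells in cluster 12, 86.3% in cluster 11 and 83.2% in cluster 9, where cluster and library cannot be told apart. In clusters 13, 11 and 5 the median gene was lower than in the other clusters, by log2 differences of -0.51, -0.29 and -0.24, and ribosomal protein genes held 29.8%, 23.7% and 23.4% of the UMIs, against 16.2% in cluster 4. Summed markers of EC cells ranged from 1.46 to 15.7 UMIs per 10000, those of fibroblasts from 0.101 to 1.52 and those of endothelial and blood cells from 0.0246 to 0.417, with PTPRC, the pan-leukocyte antigen, at no more than 0.00185.

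Promoter sequences are shown for 6 members, because the main division among the genes was between those that followed S phase and those that did not. The same members also followed the EC score, described below. The letters searched for were TTTCCCGC on either strand, a form of the site of E2F factors, which drive many replication genes. RefSeq held a promoter window of 300 bases (250 before and 50 after the start, GRCh38.p14) for 34 of the 35 members, FANCI being the exception. Each window is printed 5′ to 3′ on the strand of its gene, with the match in capitals. LIG1 (chr19:48170295-48170594, minus strand), FANCD2 (chr3:10026187-10026486, plus strand), XRCC2 (chr7:152676092-152676391, minus strand) and MSH6 (chr2:47782895-47783194, plus strand) followed S phase and held a match, which in FANCD2 and XRCC2 lay on the other strand and reads GCGGGAAA. XPC (chr3:14178552-14178851, minus strand) held a match but did not follow S phase. DDB2 (chr11:47214724-47215023, plus strand) is shown with its match to the p53 consensus in capitals.
LIG1: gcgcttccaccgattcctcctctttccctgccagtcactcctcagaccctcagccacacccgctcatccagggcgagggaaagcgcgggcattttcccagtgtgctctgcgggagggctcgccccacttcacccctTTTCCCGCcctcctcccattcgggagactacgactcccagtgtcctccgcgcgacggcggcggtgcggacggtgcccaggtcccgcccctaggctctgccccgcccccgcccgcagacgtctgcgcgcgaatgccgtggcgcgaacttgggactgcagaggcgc
FANCD2: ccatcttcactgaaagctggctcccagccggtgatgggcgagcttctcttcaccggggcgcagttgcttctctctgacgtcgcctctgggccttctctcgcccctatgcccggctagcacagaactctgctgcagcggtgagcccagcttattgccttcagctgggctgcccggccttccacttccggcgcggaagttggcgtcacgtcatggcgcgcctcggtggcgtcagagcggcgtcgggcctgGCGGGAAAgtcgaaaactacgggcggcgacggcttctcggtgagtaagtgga
XRCC2: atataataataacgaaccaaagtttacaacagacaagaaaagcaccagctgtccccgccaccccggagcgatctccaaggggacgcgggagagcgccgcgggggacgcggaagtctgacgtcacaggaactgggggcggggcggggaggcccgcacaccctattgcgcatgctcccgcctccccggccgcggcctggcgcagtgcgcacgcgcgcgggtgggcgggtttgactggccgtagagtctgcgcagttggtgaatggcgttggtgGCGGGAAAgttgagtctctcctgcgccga
MSH6: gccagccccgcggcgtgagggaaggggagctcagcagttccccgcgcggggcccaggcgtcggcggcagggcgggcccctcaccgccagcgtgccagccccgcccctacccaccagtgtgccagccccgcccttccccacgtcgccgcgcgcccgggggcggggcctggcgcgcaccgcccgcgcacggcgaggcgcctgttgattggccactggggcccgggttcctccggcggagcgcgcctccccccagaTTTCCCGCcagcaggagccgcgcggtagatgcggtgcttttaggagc
XPC: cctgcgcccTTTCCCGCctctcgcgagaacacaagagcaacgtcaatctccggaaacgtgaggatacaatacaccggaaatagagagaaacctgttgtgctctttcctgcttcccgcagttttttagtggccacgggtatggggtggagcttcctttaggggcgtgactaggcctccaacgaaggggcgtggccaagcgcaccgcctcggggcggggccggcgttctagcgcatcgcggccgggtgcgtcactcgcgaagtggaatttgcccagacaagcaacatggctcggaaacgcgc
DDB2: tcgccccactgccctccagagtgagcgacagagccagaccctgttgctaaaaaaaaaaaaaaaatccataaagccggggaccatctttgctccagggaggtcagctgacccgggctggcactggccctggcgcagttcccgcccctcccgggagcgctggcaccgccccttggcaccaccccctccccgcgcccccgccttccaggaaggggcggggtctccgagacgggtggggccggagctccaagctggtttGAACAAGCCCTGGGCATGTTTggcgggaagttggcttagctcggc

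The TTTCCCGC match was in the windows of 7 of 34 members (20.6%), namely XPC, LIG1, FANCC, FANCD2, XRCC2, MSH6 and REV3L. Of all genes with a window, 1.98% held it, and of those that passed the minimum level 3.34%. Counted from the start site, the match began at -114 in LIG1, -2 in FANCD2, 3 in MSH6 and 21 in XRCC2. In the members that did not follow S phase it began at -241 in XPC, -88 in REV3L and -46 in FANCC. Among members with a correlation of at least 0.5 with the S phase score, described below, 4 of 12 held it (33.3%), against 3 of the other 22 (13.6%) and 9 of 25 genes of the S phase list (36%). BRCA1, BRCA2, FANCA and XRCC3 followed S phase with no match in this window. The CCAAT letters, on either strand, were found in 41.2% of the members with a window. They were found in 39.7% of all genes with a window and in 44.2% of those that passed the minimum level. The p53 consensus, allowing a spacer of up to 13 bases between its arms, was found in DDB2 alone of the 34 members, in 0 of 15 genes of the p53 target list, and in 10 of 27305 genes with a window (0.0366%). A match is a description of the letters and not a measured binding site.

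Of the 35 genes, 34 had a mean over the clusters of at least 0.05 UMIs per 10000, as had 12139 genes in all. FANCE, a core complex subunit, was below it with a mean of 0.0381, and ranged from 0.0234 in cluster 13 to 0.0504 in cluster 0. The FANCE average of cluster 13 was 2.76 times the smallest nonzero average in that cluster, so it rested on little signal. Among the clusters with at least 100 cells, the ratio of the highest to the lowest average had a median of 2.61 over the 34 members and of 2.75 over the 12139 genes. The repair genes as a whole were thus expressed in every cluster and spread about as widely as the typical gene.

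Difference values below are log2 of a cluster's average over the mean of the other clusters, with 0.1 UMIs per 10000 added to both. Of the 490 pairs of a member and a cluster, 0 were at least 2-fold higher, against 1.27% of the pairs of all genes, and 16 were at least 2-fold lower, against 3.4%. Cluster 13 held 10 of these 16, where 23.9% of all genes were this low, and cluster 12 held 3, BRCA1, FANCD2 and FANCI, where 3.13% were. The other three were XPC in cluster 5 (4.25% of all genes), BRCA1 in cluster 9 (3.12%) and REV3L in cluster 11 (5.02%). Past 1.5-fold, a limit chosen after the values were seen, 21 pairs were higher (4.61% of the pairs of all genes) and 49 were lower (9.85%). The members' highest averages among the clusters with at least 100 cells were in cluster 6 for 7 genes (6.67% of the 12139 genes peaked there), cluster 9 for 7 (21.1%), cluster 12 for 7 (14.7%) and cluster 8 for 4 (7.54%). The lowest average of 21 of the 35 members was in cluster 13, as it was for 46.2% of the 12139 genes.

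**Figure D1:**
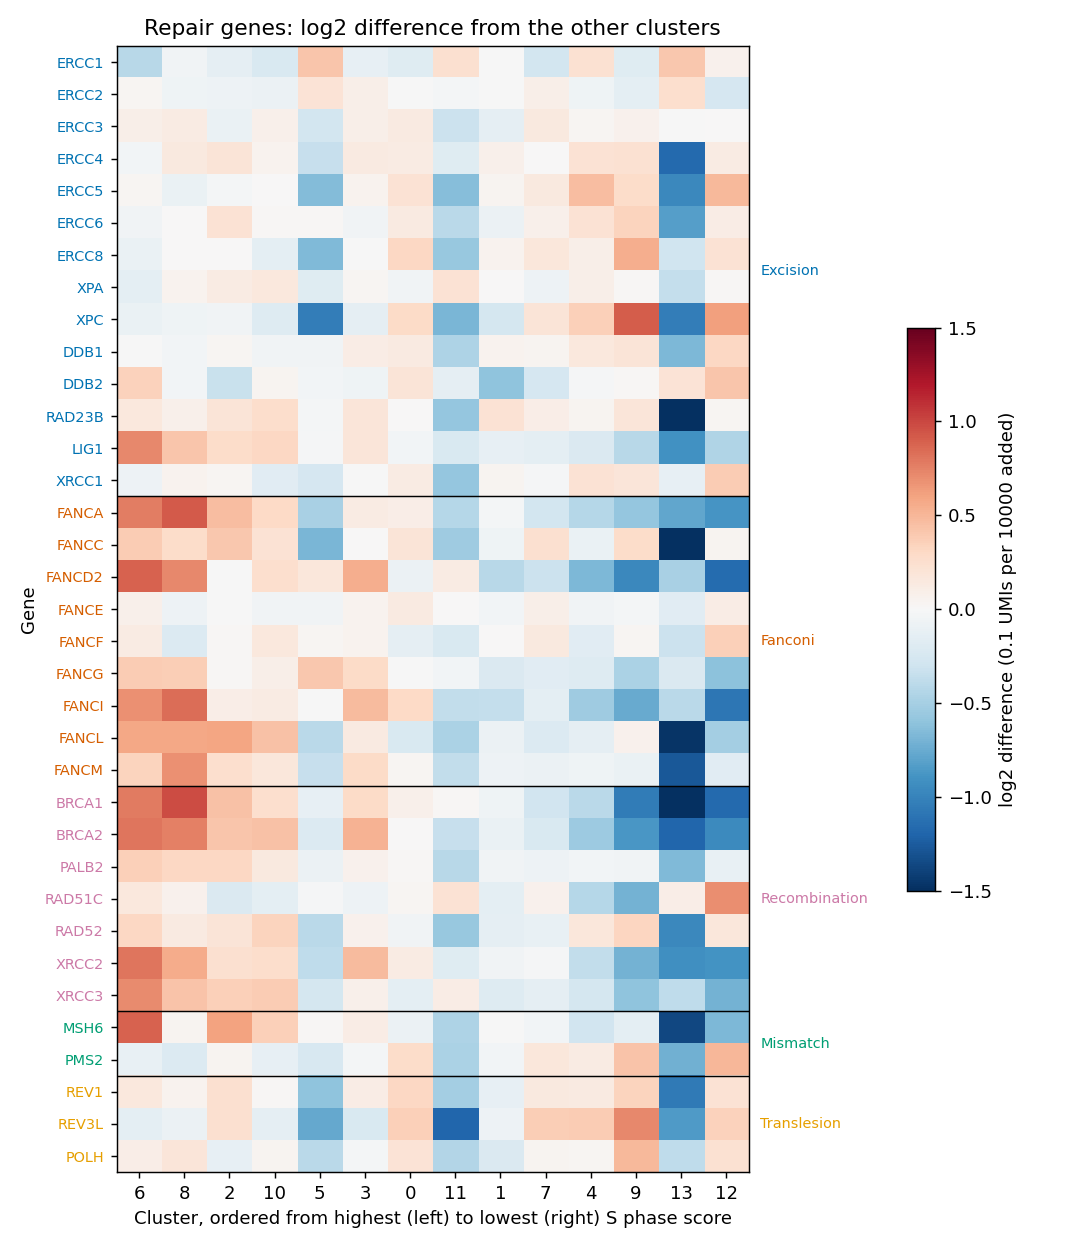
Log2 difference of each of the 35 genes (rows, coloured by pathway) in each of the 14 clusters (columns, ordered from the highest to the lowest S phase score) from the mean of the other clusters; red is higher and blue lower, and the scale stops at -1.5 and 1.5. Most Fanconi and recombination genes are red in clusters 6 and 8 and blue in clusters 9 and 12, with BRCA1 at 0.98 in cluster 8 and -1.16 in cluster 12, while XPC and REV3L are red in cluster 9, at 0.91 and 0.72.

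The cell cycle state of a cluster was read from the mean log2 level of 31 S phase genes, none of them a member. The S phase score was highest in cluster 6 (-0.15), cluster 8 (-0.37) and cluster 2 (-0.61), and lowest in cluster 12 (-1.70), cluster 13 (-1.65) and cluster 9 (-1.52). PCNA, the sliding clamp of replication, averaged 1.26 in cluster 6, 1.09 in cluster 8 and 0.358 in cluster 12. The G2/M score was highest in cluster 3 (0.78), where TOP2A, the mitotic topoisomerase, averaged 4.83. CDKN1A, the p53-induced inhibitor of the cell cycle, averaged 1.33 in cluster 12, 1.10 in cluster 4 and 1.06 in cluster 9. Clusters 9 and 12 thus had low replication transcripts and high CDKN1A.

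Over the 14 clusters the Spearman correlation with the S phase score had a median of 0.86 in the recombination genes and of 0.81 in the Fanconi genes, against -0.15 in the excision repair genes, -0.09 in the translesion genes and -0.05 over all genes. A correlation of at least 0.5 was reached by 13 of 34 members, against 20.7% of all genes, and one of at most -0.5 by 0 members, against 13.4%. The 13 were 6 of 8 Fanconi genes, 5 of 7 recombination genes, LIG1 as 1 of 14 excision repair genes, and MSH6. The points share the libraries, the depth and the clustering of the cells, so the correlations describe these 14 averages and carry no p-value. Under the alternatives run, the median ranged from 0.75 to 0.92 for the Fanconi genes, from 0.60 to 0.95 for the recombination genes and from -0.34 to 0.03 for the excision repair genes.

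In the excision repair pathway the exception was LIG1, the DNA ligase that seals the fragments of the lagging strand during replication and also nicks left by repair. From cluster 0 to cluster 13, in order, LIG1 averaged 0.193, 0.178, 0.257, 0.238, 0.160, 0.197, 0.372, 0.174, 0.291, 0.129, 0.265, 0.160, 0.123 and 0.0658 UMIs per 10000. It was highest in cluster 6 and lowest in cluster 13, and its correlation with the S phase score was 0.96. ERCC6, the CSB protein that detects stalled RNA polymerase, averaged 0.136, 0.106, 0.150, 0.110, 0.149, 0.120, 0.109, 0.129, 0.118, 0.169, 0.120, 0.0668, 0.132 and 0.0263 in the same order. ERCC6 was highest in cluster 9, and apart from clusters 11 and 13 it stayed between 0.106 and 0.169. In cluster 13 the ERCC6 average was 3.11 times the smallest nonzero average, so it rested on little signal. The correlation of ERCC6 with the S phase score was -0.13, and with ERCC8, its partner CSA in the same transcription-coupled step, 0.69.

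The damage sensors of excision repair were unlike each other. XPC, which opens global genome repair at a helix distortion (gene at chr3:14145147-14178621), averaged 1.35 in cluster 9 and 1.11 in cluster 12, and had its lowest averages in clusters 13 and 5, with 0.315 and 0.316. RAD23B, the protein that stabilises XPC, averaged between 0.296 in cluster 13 and 1.25 in cluster 10. Its correlation with XPC was 0.18 over all clusters and -0.02 over those with at least 100 cells. DDB2, the ultraviolet damage sensor, was highest in cluster 12 (0.807) and cluster 6 (0.764) and lowest in cluster 1 (0.370). DDB1, the adaptor that carries DDB2 to the ubiquitin ligase, was highest in cluster 12 (0.988) and lowest in cluster 13 (0.475). DDB1 and DDB2 correlated at 0.13 over all clusters and at 0.32 over those with at least 100 cells. Clusters 6 and 12, the highest and lowest in the S phase score, were thus both high in DDB2.

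None of the other excision repair genes was past 1.5-fold outside clusters 5, 11 and 13. ERCC8 ranged from 0.240 in cluster 5 to 0.640 in cluster 9. XPA, the scaffold of the incision complex, ranged from 0.221 in cluster 13 to 0.365 in cluster 11. ERCC2 and ERCC3, the helicases of the transcription factor TFIIH, ranged from 0.105 in cluster 12 to 0.185 in cluster 13 and from 0.196 in cluster 11 to 0.300 in cluster 7. Neither helicase was past 1.5-fold in any of the 14 clusters. ERCC1, whose protein forms a nuclease with that of ERCC4 (XPF), was highest in cluster 5 (0.971) and cluster 13 (0.966), and lowest in cluster 6 (0.529). ERCC4 in contrast was lowest in cluster 13 (0.0687), followed by cluster 5 (0.191), and highest in cluster 9 (0.322). The nuclease partners ERCC1 and ERCC4 thus went opposite ways in clusters 5 and 13. Their correlation was -0.27, and -0.09 over the clusters with at least 100 cells. ERCC5, the XPG nuclease that cuts on the other side of the lesion, ranged from 0.0724 in cluster 13 to 0.342 in cluster 12. XRCC1, the scaffold of single strand break repair, ranged from 0.0698 in cluster 11 to 0.216 in cluster 12.

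Of the Fanconi genes, FANCM, the fork-binding translocase, and FANCC, a core complex subunit, had the largest ratios of highest to lowest average over all 14 clusters, 9.59 and 8.68. Both rested on the 42 cells of cluster 13, and over the clusters with at least 100 cells the ratios were 2.54 and 2.52, below those of FANCD2 (6.31), FANCG (4.99), FANCI (4.87) and FANCA (4.84). From cluster 0 to cluster 13, in order, FANCM averaged 0.238, 0.215, 0.288, 0.299, 0.217, 0.165, 0.310, 0.213, 0.411, 0.212, 0.269, 0.162, 0.196 and 0.0429. It was highest in cluster 8 and lowest in cluster 13. FANCC averaged 0.448, 0.362, 0.526, 0.385, 0.353, 0.209, 0.515, 0.462, 0.474, 0.475, 0.457, 0.241, 0.396 and 0.0605 in the same order. FANCC was highest in cluster 2 and lowest in cluster 13, and its correlation with the S phase score was 0.46, below the limit.

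The proteins of FANCD2 and FANCI form the clamp that is ubiquitinated at a crosslink. FANCD2 averaged 0.674 in cluster 6, 0.597 in cluster 8 and 0.527 in cluster 3. Its lowest averages were 0.187, 0.136 and 0.107 in clusters 4, 9 and 12. FANCI averaged 0.837 and 0.757 in clusters 8 and 6, and 0.239 and 0.172 in clusters 9 and 12. The correlation between these clamp partners was 0.91. FANCD2 shares reads with near-identical pseudogene copies in the genome, as does PMS2, so their levels are uncertain to the extent that counting could not separate them. FANCL, the ubiquitin ligase of the clamp, was highest in cluster 2 (0.989), cluster 8 (0.984) and cluster 6 (0.983), and lowest in cluster 13 (0.184).

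Among the other core complex subunits, FANCA was highest in cluster 8 (0.625) and lowest in cluster 12 (0.129). FANCG, which binds FANCA, was highest in clusters 5, 6 and 8 (0.152, 0.149 and 0.148) and lowest in cluster 12 (0.0304). Both correlated at 0.89 with the S phase score. FANCF, the adaptor of the complex, differed from them with its highest average in cluster 12 (0.145), its lowest in cluster 13 (0.0586), and a correlation with the S phase score of 0.08. Summed over the 9 Fanconi genes, the averages came to 4.18 in cluster 8, 4.11 in cluster 6, 1.66 in cluster 12 and 1.13 in cluster 13.

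The recombination genes with the largest ratios over all 14 clusters, cluster 13 included, were BRCA1 and XRCC2. BRCA1 promotes resection and brings in later factors, and XRCC2 acts in strand exchange. Over the clusters with at least 100 cells the ratio was 5.59 for BRCA1, below XRCC2 (8.98), XRCC3 (5.96) and BRCA2 (5.81). From cluster 0 to cluster 13, in order, BRCA1 (gene at chr17:43044295-43170245) averaged 0.537, 0.486, 0.703, 0.630, 0.369, 0.461, 0.896, 0.405, 1.02, 0.205, 0.614, 0.516, 0.183 and 0.0931. Clusters 8 and 6 were highest and clusters 13, 12 and 9 lowest, with every other cluster between 0.369 and 0.703. XRCC2 averaged 0.159, 0.131, 0.180, 0.225, 0.0882, 0.0864, 0.296, 0.136, 0.241, 0.0502, 0.183, 0.113, 0.0330 and 0.0313 in the same order. Cluster 6 was again high and clusters 12 and 13 low, and the XRCC2 average of cluster 13 was 3.70 times the smallest average above 0 in that cluster, so it rested on little signal.

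BRCA2, which prepares single-stranded DNA for strand exchange, ranged from 0.0510 in cluster 13 to 0.449 in cluster 6, and PALB2, which bridges BRCA1 and BRCA2, from 0.0572 in cluster 13 to 0.204 in cluster 6. PALB2 correlated with its partners, at 0.83 with BRCA1 and 0.86 with BRCA2, but was past 1.5-fold in cluster 13 alone. XRCC3, which also acts in strand exchange, ranged from 0.0429 in cluster 12 to 0.256 in cluster 6. RAD52, an annealing protein, ranged from 0.149 in cluster 13 to 0.477 in clusters 9 and 10.

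RAD51C (gene at chr17:58692573-58735611) stood apart from XRCC2 and XRCC3. It was highest in cluster 12 (0.867), followed by cluster 11 (0.612), and lowest in cluster 9 (0.293). Its correlation was -0.04 with the S phase score and 0.09 with XRCC3, its partner in a complex (0.20 over the clusters with at least 100 cells). In cluster 12 its difference was 0.70, beside -0.90 for XRCC2 and -0.71 for XRCC3. Cluster 12 came almost wholly from 1 library, and whether that library had a high RAD51C level in other clusters was not tested.

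**Figure D2:**
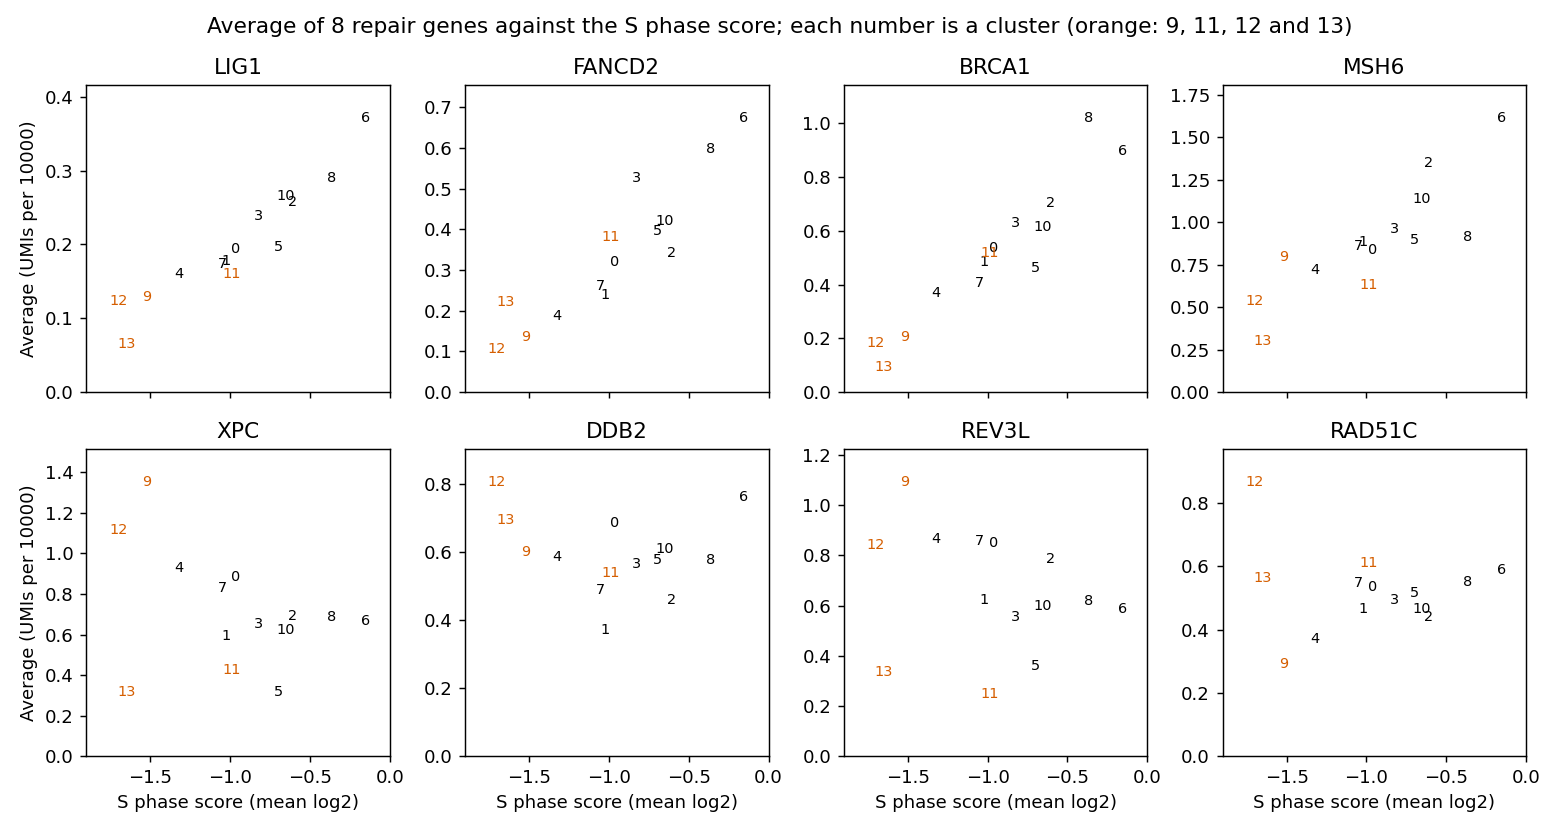
Average of 8 repair genes (vertical axis, UMIs per 10000) against the S phase score (horizontal axis, mean log2 of 31 genes); each number is a cluster, and clusters 9, 11, 12 and 13 are in orange. LIG1, FANCD2, BRCA1 and MSH6 are highest in cluster 6 or 8 and lowest in cluster 12 or 13, whereas XPC and REV3L are highest in cluster 9 (1.35 and 1.09) and RAD51C and DDB2 in cluster 12 (0.867 and 0.807).

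The mismatch repair genes followed different orders. MSH6, which recognises single mismatches, averaged 0.834, 0.880, 1.35, 0.960, 0.720, 0.896, 1.61, 0.861, 0.915, 0.798, 1.14, 0.628, 0.535 and 0.300 from cluster 0 to cluster 13. It was highest in cluster 6 and cluster 2, but in cluster 8, the next highest in the S phase score after cluster 6, its difference was 0.04. The correlation of MSH6 with the S phase score was 0.89. PMS2, part of the nuclease that acts after recognition, averaged 0.336, 0.258, 0.276, 0.259, 0.298, 0.215, 0.242, 0.308, 0.221, 0.382, 0.240, 0.169, 0.402 and 0.130 in the same order. PMS2 was highest in clusters 12 and 9 and its correlation with the S phase score was -0.37.

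All 3 translesion polymerase genes were highest in cluster 9, a cluster low in S phase where 21.1% of all genes peaked. REV1, the scaffold of the translesion polymerases, averaged 0.432, 0.302, 0.408, 0.368, 0.375, 0.195, 0.384, 0.380, 0.352, 0.440, 0.340, 0.213, 0.399 and 0.117 from cluster 0 to cluster 13. REV3L, the catalytic subunit of polymerase zeta, averaged 0.851, 0.621, 0.787, 0.554, 0.866, 0.359, 0.588, 0.859, 0.616, 1.09, 0.597, 0.247, 0.842 and 0.334. POLH, polymerase eta, which copies past ultraviolet and platinum lesions within a strand, averaged 0.181, 0.115, 0.128, 0.142, 0.151, 0.0904, 0.163, 0.154, 0.177, 0.237, 0.153, 0.0858, 0.186 and 0.0934. Clusters 5, 11 and 13, where the median gene was low, were the lowest for each of these 3 genes. Over the 3 genes the median difference was 0.49 in cluster 9 and 0.31 in cluster 0, against 0.09 and 0.07 over all genes, and -0.60 in cluster 5, against -0.24.

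By cluster, the S phase-high clusters stood out on the high side. In cluster 6, 9 of 35 members were at least 1.5-fold higher (LIG1, FANCA, FANCD2, FANCI, BRCA1, BRCA2, XRCC2, XRCC3 and MSH6), against 4.21% of all genes. In cluster 8 there were 6 (FANCA, FANCD2, FANCI, FANCM, BRCA1 and BRCA2), against 4.55%. In cluster 2 there were FANCL and MSH6, against 2.6%. The median difference of the recombination genes was 0.71 in cluster 6 and 0.43 in cluster 8, where that of all genes was -0.05 and -0.01.

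Clusters 9 and 12, low in the S phase score, stood out on the low side. In cluster 12, 9 members were at least 1.5-fold lower (FANCA, FANCD2, FANCG, FANCI, BRCA1, BRCA2, XRCC2, XRCC3 and MSH6), against 9.4% of all genes, and XPC and RAD51C were higher, against 9.84%. In cluster 9, 8 were lower (FANCA, FANCD2, FANCI, BRCA1, BRCA2, RAD51C, XRCC2 and XRCC3), against 9.19%, and XPC and REV3L were higher, against 11.3%. The recombination genes had a median difference of -0.70 in cluster 9 and -0.71 in cluster 12. The excision repair genes had 0.18 and 0.11, against 0.09 and 0.05 over all genes. RAD51C was past the limit in both clusters and in opposite directions.

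In clusters 13, 5 and 11 many genes were low, members included. In cluster 13, 20 of the 35 members were at least 1.5-fold lower where 45.8% of all genes were, in cluster 5 there were 6 (ERCC5, ERCC8, XPC, FANCC, REV1 and REV3L) against 20.5%, and in cluster 11 there were 4 (ERCC5, XPC, RAD23B and REV3L) against 23%. DDB2 in cluster 1 and FANCD2 in cluster 4 were lower, where 1.54% and 3.95% of all genes were. No member passed 1.5-fold in clusters 0, 3, 7 and 10, where 6.58%, 1.58%, 2.73% and 3.1% of all genes were higher and 4.98%, 1.34%, 4.2% and 2.41% were lower.

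**Figure D3:**
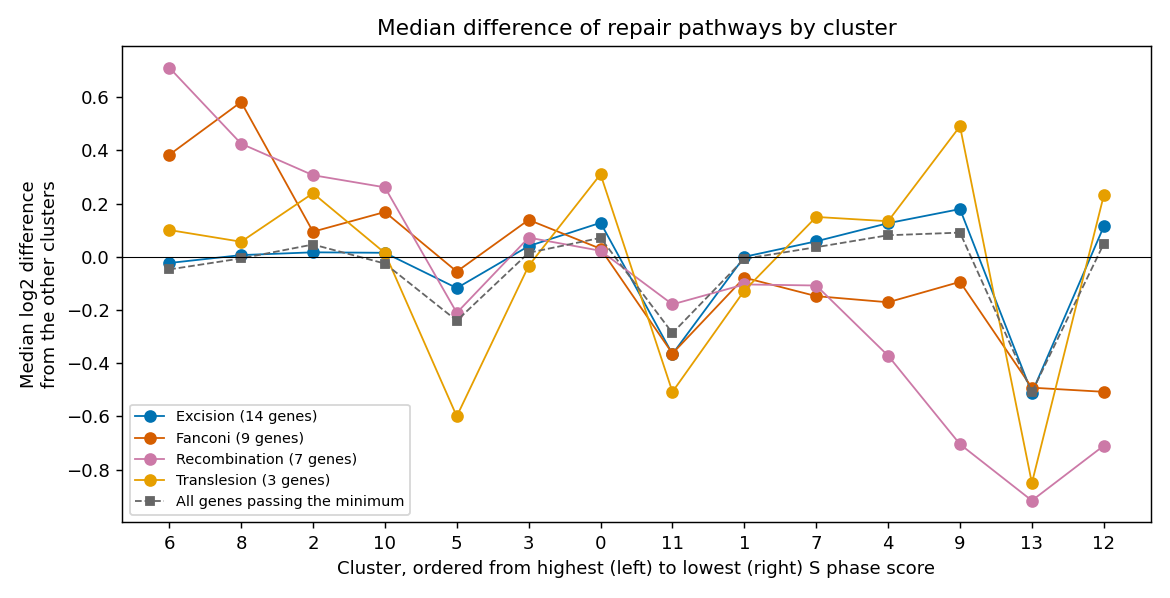
Median log2 difference (vertical axis) of the excision, Fanconi, recombination and translesion genes and of all genes passing the minimum (dashed) in the 14 clusters, ordered from the highest to the lowest S phase score; mismatch repair has 2 genes and is left out. The recombination line runs from 0.71 in cluster 6 to -0.70 in cluster 9 and -0.71 in cluster 12, while the excision line stays near that of all genes.

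The authors listed the share of cells with a UMI of a gene for 13 pairs of a member and a cluster, only where the gene was higher in that cluster, so the shares come from the same cells and add no separate support. Intervals are exact (Clopper-Pearson, 95%) and cover counting error only. In cluster 8, 91.0% of the cells had BRCA1 (89.1 to 92.6%), and 56.6% of the cells elsewhere. FANCD2 was present in 82.7% of cluster 6 (80.8 to 84.5%) and 48.5% elsewhere. In cluster 12, RAD51C was present in 91.1% (86.0 to 94.8%) and XPC in 92.2% (87.3 to 95.7%), with 62.0% and 71.0% elsewhere. Cells elsewhere with a UMI of these genes were common, and the part of free RNA in either share was not tested. The depth per cell was not analysed here.

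The G2/M score gave a similar but weaker order. The median correlation was 0.61 in the Fanconi genes, 0.65 in the recombination genes and -0.19 in the excision repair genes, and 11 of 34 members reached 0.5, against 17.7% of all genes. FANCD2 had 0.90, FANCG 0.87 and FANCI 0.86. REV3L alone was at or below -0.5 (17.8% of all genes), with -0.51. The S phase and G2/M scores correlated at 0.79 with each other.

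The EC score correlated at 0.87 with the S phase score, so the EC state and the cell cycle state cannot be told apart over these clusters as a whole. The 13 members that reached 0.5 with the EC score, against 18.3% of all genes, were the same 13 as with the S phase score. ERCC8, XRCC1 and REV3L were at or below -0.5, against 19.3%. The median correlation with the EC score was 0.62 in the Fanconi genes and 0.76 in the recombination genes. It was -0.26 in the excision repair genes and -0.13 over all genes. Cluster 8 was second in the S phase score but had an EC score of -1.08, against 0.43 in cluster 6. POU5F1, the pluripotency factor OCT4, averaged 0.657 in cluster 8 and 3.96 in cluster 6, while BRCA1 averaged 1.02 and 0.896. Cluster 10 had POU5F1 at 2.44 and BRCA1 at 0.614. MSH6 averaged 0.915 in cluster 8, 1.14 in cluster 10 and 1.61 in cluster 6, the order of POU5F1 in these clusters. That order did not hold elsewhere. Cluster 2 had MSH6 at 1.35 and POU5F1 at 0.493, and cluster 5 had 0.896 and 1.90. Over all clusters MSH6 correlated at 0.79 with the EC score and at 0.89 with the S phase score.

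SOX17, the induced factor, averaged 21.0 in cluster 0, 12.4 in cluster 7, 8.52 in cluster 13, 4.54 in cluster 6 and 2.52 in cluster 3. ERCC2 was the only member with a correlation of at least 0.5 with SOX17, at 0.80 (2.97% of all genes), although its averages spanned only 0.105 to 0.185. XPA, RAD23B and RAD52 were at or below -0.5 (7.42% of all genes), with -0.52, -0.53 and -0.57. In cluster 0, with the highest SOX17, the members had a median difference of 0.10 and all genes 0.07. The median correlation with SOX17 was -0.18 in the excision repair genes, 0.0044 in the Fanconi genes and 0.06 in the recombination genes, against -0.09 over all genes.

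With the score of 18 p53 target genes, none of them a member, the correlation reached 0.5 in 12 of 34 members, against 33.1% of all genes. They were ERCC4, ERCC5, ERCC6, ERCC8, XPC, DDB1, XRCC1, RAD52, PMS2, REV1, REV3L and POLH. The share of the members was close to that of all genes. ERCC2, at -0.72, was the only one at or below -0.5 (6.23% of all genes). The same 12 genes also reached 0.5 with the median difference of all genes in a cluster, as did 43.9% of all genes, and that median correlated at 0.71 with the p53 target score. After the columns were rescaled by the median of ratios, the median correlation of the excision repair genes with the p53 target score was 0.18 in place of 0.51. Over all genes the median was -0.0066 in place of 0.30. DDB2, the member with the p53 consensus in its promoter window, had 0.43.

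Correlations between members were higher within the Fanconi and recombination genes than within the excision repair genes. Among the Fanconi genes 60.7% of the 28 pairs reached 0.5, with a median of 0.61, and among the recombination genes 52.4% of 21, with a median of 0.67. Among the excision repair genes 24.2% of 91 pairs did, with a median of 0.18, close to the 22.3% and the median of 0.13 over all pairs of genes. Between the excision repair genes and both other groups, 14.3% of 210 pairs reached 0.5. The Fanconi genes were not compared with the recombination genes, so whether these pathways formed separate units was not tested. REV1 and REV3L correlated at 0.77.

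The other genes of the same pathways came from lists that hold no member. Of 82 such genes passing the minimum level, 44 had a correlation of at least 0.5 with the S phase score, against 20.7% of all genes. By list, 18 of 23 recombination genes, 8 of 13 Fanconi genes, 4 of 6 mismatch genes, 12 of 33 excision genes and 2 of 7 translesion genes reached 0.5. The other excision genes had a median of 0.31, where the excision repair members had -0.15 and 1 of 14 past the limit. Among the highest were USP1, which removes ubiquitin from the FANCD2 clamp (0.96), BRIP1, a helicase that binds BRCA1 (0.90), the BLM helicase (0.96) and the nuclease EXO1 (0.96). In the excision and translesion lists they were the replicative polymerase gene POLE (0.96), the uracil glycosylase UNG (0.87), the ubiquitin ligase RAD18 (0.90) and POLQ, the polymerase of end joining (0.88). The excision genes that followed S phase most closely were thus LIG1, POLE and UNG, which are also known for work at the replication fork.

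Among the lowest of the other genes was OGG1 (-0.51), which removes oxidised bases. ATR, the kinase of stalled forks, had -0.49, RAD50, of the complex that binds broken ends, -0.28, the nuclease FAN1 -0.31 and the core complex partner FAAP100 -0.27. PMS1 and MLH3, of mismatch repair, had -0.06 and -0.04, and the protease SPRTN and the polymerase POLI -0.44 and -0.34. Each pathway therefore held genes that did not follow the S phase score.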

How the data were processed

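The scRNAseq libraries, 1 each from NCCIT, GCT27 and 2102EP, were grouped by title, and for 1 of them another label gave a different line. Per the submitters' processing notes, reads were processed with Cell Ranger 7.0 and Seurat 4.1.1 on GRCh38. According to its methods, the study aggregated the libraries to equal depth, removed low-quality cells and doublets, and used graph-based clustering. The release of the annotation and whether intronic reads were counted are not given in the sources used here. If they were, long genes gain UMIs.

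Average expression was deposited per cluster, in UMIs per 10000, and each column summed to 10000. The detection shares were deposited as a fraction of cells, printed here as a percent, and numbers of cells per library code were deposited with the percent of the cluster that each code held. The 3 library codes matched no sample label, so no line was separated. The fold changes and p-values of the authors' own rank sum comparisons were not used. UMI totals per cluster were not analysed here, and only the number of cells stands for depth.

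Averages were compared as log2(average + 0.1); a gene entered when its mean over clusters was at least 0.05. Correlations (limit 0.5) and the folds 2 and 1.5 were described with no test, because each cluster had 1 pooled value and clusters were formed from the same expression. All members were named, the 2 of each pathway with the largest ratio of highest to lowest of all 14 clusters (all in mismatch and translesion) were given in every cluster, and of the other pathway genes the 2 highest and 2 lowest per list were named, some of which are not reported here. Members and lists were chosen with earlier results of these data known. Positions are from GENCODE 44 and promoters from RefSeq (GRCh38.p14). Scripts were tested on simulated data and used Python 3.11.15, pandas 2.3.3, numpy 2.4.6, scipy 1.17.1 and matplotlib 3.10.9. The alternatives covered the pseudocount, the minimum level, the scaling, Pearson correlation and clusters left out.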

Additional observations from a re-analysis of the deposited data

How the results depend on the processing

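No paired analysis was possible because each cell line had 1 library and the cluster averages carried no line; no replicate could be left out. In every alternative run, the Fanconi and recombination medians with the S phase score stayed above those of the excision and translesion genes; the recombination median was 0.5978 with members of a mean of at least 0.2, and the translesion median 0.28 without clusters over 80% 1 library. Of the correlations, the medians with the p53 targets moved most often. As reported they were 0.27 for all members, 0.51 for excision, 0.02 for Fanconi and -0.11 for recombination genes, and 0.30 over all genes. Rescaling the columns by the median of ratios gave -0.1516 for all members, 0.1824 for excision, -0.4418 for Fanconi and -0.556 for recombination genes. Removing ribosomal protein and mitochondrial genes gave -0.04835 for all members, -0.2593 for Fanconi and -0.3934 for recombination genes, and leaving out clusters 5, 11 and 13 (chosen after seeing the data) gave -0.1591, -0.5727 and -0.6. Recombination genes had -0.3352 without clusters under 100 cells, -0.3615 by Pearson and 0.2091 without clusters that were over 80% 1 library. Over all genes the p53 target median was -0.0066, 0.15, 0.09, 0.25, 0.32 and 0.23 under these settings, in the order given. The G2/M median was 0.3385 for all members and 0.1143 for excision genes after median of ratios, and 0.8455 for Fanconi genes without clusters 5, 11 and 13. The EC median was 0.4901 for recombination genes at a mean of at least 0.2, -0.03927 for excision genes by Pearson, and 0.8636 for Fanconi genes without clusters 5, 11 and 13. The SOX17 median was 0.07727 for excision and -0.2455 for recombination genes without clusters over 80% 1 library, and 0.2545 for Fanconi and 0.2727 for recombination genes without clusters 5, 11 and 13. The median difference of cluster 13 was -1.039 and -0.2861 with 0.01 and 0.5 added, and -0.2335 after median of ratios, which also gave -0.08369 for cluster 11. The other 93 values moved by less than 0.25, a limit above the size of the reported value in every cluster but 11 and 13. After median of ratios the sign changed in clusters 0, 2, 5, 9 and 12 and stayed in the other clusters. Cluster 5 then had 0.0055 in place of -0.21. Pairs at least 2-fold higher numbered 6 with 0.01 added and 1 after median of ratios. Pairs at least 2-fold lower numbered 36 with 0.01 added, 1 with 0.5 added, 7 after median of ratios and 7 without clusters under 100 cells. At 1.5-fold there were 21 higher and 49 lower. The cause of these shifts was not tested. Depth per cluster was not analysed here, and the averages of clusters 12 and 13 rest on 180 and 42 cells.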

Other observations

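Gene length moved with the differences in some clusters. In cluster 13 the correlation across genes between length and difference was -0.53 over 34 members and -0.52 over 11342 genes matched to the annotation by symbol. In cluster 11 the correlations were -0.35 and -0.48, and in cluster 5 they were -0.25 and -0.53. In cluster 2 they were 0.53 and 0.32. Over all genes the correlation was 0.33 in cluster 0, 0.33 in cluster 4, 0.31 in cluster 9 and 0.26 in cluster 7. Over the members it was 0.17, -0.11, 0.07 and -0.06 in the same order. Genes are not independent replicates, and the part of length in the low values of clusters 5, 11 and 13 was not tested.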
